A study of Mus musculus with 6 samples.

Results

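The 8 genes described here, Mtor, Rptor, Rictor, Tsc1, Tsc2, Akt1, Akt2 and Eif4ebp2, belong to the PI3K, mTOR and TSC signalling pathway and were chosen by symbol, as a pathway linked to fragile X syndrome, from the 23337 gene rows of each count file. All 8 had enough counts to be tested. The data are nuclear RNA from mouse neural precursor cells, the dividing cells of the embryonic forebrain that give rise to neurons and glia, cultured from the dorsal hem of the forebrain of E13.5 embryos and used at passage 6 to 7. The medium held the growth factors EGF and FGF2, both at 20 ng/ml. There were 3 lines labelled Fmr1 WT (lines 3, 8 and 19) and 3 labelled Fmr1 KO (lines 3, 13 and 16), and the design text describes the lines as independent. The labels do not state the strain, the sex or the kind of Fmr1 allele. All lines grew in the same medium, with both growth factors that feed into PI3K present throughout.

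PI3K makes a lipid signal at the membrane when growth factor receptors are active. The lipid recruits AKT kinases, which inactivate the TSC1-TSC2 complex, so that the small GTPase RHEB can switch on mTORC1, the complex of mTOR with RAPTOR. mTORC1 drives translation, in part by phosphorylating the 4E-BP proteins, repressors that otherwise hold the cap-binding factor eIF4E, while mTORC2, the complex of mTOR with RICTOR, phosphorylates AKT itself. FMRP, the RNA-binding protein that Fmr1 encodes, represses translation of many brain messages, and raised mTOR signalling has been described in the brain of Fmr1 knockout mice. Nuclear RNA counts measure neither protein nor kinase activity.

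The promoters of 3 genes that were higher in the libraries labelled KO are shown because they share a motif. They are the 250 bases before the RefSeq start site in GRCm38.p6, 5′ to 3′ on the strand of the gene. Capitals mark CCGGAAG, a core bound by ETS factors such as GABPA, and CCAAT, the box bound by NF-Y, on either strand (CTTCCGG or, for the box, ATTGG when reversed).
Mtor, chr4:148448332-148448581, plus strand: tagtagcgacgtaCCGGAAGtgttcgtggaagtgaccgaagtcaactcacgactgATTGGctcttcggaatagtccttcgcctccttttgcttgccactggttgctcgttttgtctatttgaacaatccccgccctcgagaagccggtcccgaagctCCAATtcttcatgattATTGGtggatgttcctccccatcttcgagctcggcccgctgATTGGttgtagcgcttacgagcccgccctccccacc
Tsc2, chr17:24632628-24632877, minus strand: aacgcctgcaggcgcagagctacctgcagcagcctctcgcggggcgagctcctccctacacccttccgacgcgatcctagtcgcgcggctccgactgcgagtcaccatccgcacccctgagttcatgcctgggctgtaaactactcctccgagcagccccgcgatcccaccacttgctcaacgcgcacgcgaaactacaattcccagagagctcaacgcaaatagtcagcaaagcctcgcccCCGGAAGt
Eif4ebp2, chr10:61452670-61452919, minus strand: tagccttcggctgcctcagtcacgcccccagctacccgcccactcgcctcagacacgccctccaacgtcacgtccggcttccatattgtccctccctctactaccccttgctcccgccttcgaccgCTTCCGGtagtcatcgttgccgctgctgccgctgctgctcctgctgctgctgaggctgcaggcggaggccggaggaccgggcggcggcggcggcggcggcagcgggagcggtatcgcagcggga
In these windows CCGGAAG lay 237 bases before the start of Mtor, 8 before that of Tsc2 and 124 before that of Eif4ebp2. CCAAT occurred 4 times before Mtor. Among 12589 promoter windows of tested genes, 12.5% held CCGGAAG and 35.2% held CCAAT. Of the other 5 genes none held CCGGAAG, and Rictor, which did not pass the test, held 1 CCAAT. Also searched, on both strands, were the GC box GGGCGG, the cAMP response element TGACGTCA, the E box with letters CACGTG and a core motif of NRF1. Of these only the GC box matched any of the 8 genes, in Mtor, Rictor, Akt1, Akt2 and Eif4ebp2, with a share of 57.1% among tested genes. A match is a description of the letters, and the motifs were picked for display after the values were known.

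Library totals ran from 18702738 to 26789522 counts, so 1 count was worth 0.0366 to 0.0542 CPM, the unit of counts scaled to the library total after TMM normalisation. Fmr1, the targeted gene, was at 223, 269.8 and 274 CPM in WT lines 3, 8 and 19, and at 371, 188 and 153 CPM in KO lines 3, 13 and 16. The library labelled KO line 3 thus lay above every WT line, and KO lines 13 and 16 below them. Fmr1 did not pass the edgeR test described below (log2 fold change -0.10, SE 0.29, adjusted p = 0.795). As the kind of allele is not stated, these levels do not settle the genotype of any library. Each direction below is between libraries as labelled. Xist was at 15465 to 20508 CPM in WT lines 3 and 8 and KO line 3 and at 1.67 to 81.8 CPM in the others. Y-linked genes summed to 33.1, 10.1 and 720 CPM in WT lines 3, 8 and 19. In KO lines 3, 13 and 16 they summed to 0.695, 424 and 358 CPM, so neither Xist nor these genes were balanced between the labels. WT line 19 held 18739 CPM of the ribosomal RNA precursor Rn45s against 1078 to 2568 CPM elsewhere. Of 10 neural precursor markers all had counts, with summed levels of 7018 to 7970 CPM in WT and 5123 to 6641 CPM in the libraries labelled KO, and 1 of them, Vim, fell. Of 5 microglia markers 4 had counts and Tmem119 was at 0 in every library. Their summed levels were 0.475 to 1.08 CPM in WT and 0.515 to 1.34 CPM in the libraries labelled KO. All 3 globin genes were at 0 in every library.

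Of the 8 genes, 5 rose in the libraries labelled KO in edgeR's quasi-likelihood test (Benjamini-Hochberg adjusted p under 0.05 over 13925 genes): Eif4ebp2, Akt1, Mtor, Tsc2 and Tsc1, by 30.0% to 64.1%. The other 3, Akt2, Rptor and Rictor, did not pass. Over all tested genes 42.3% were called, 21.8% higher and 20.4% lower, so that calls were common in this comparison. For 6 of the 8 the WT lines and the libraries labelled KO did not overlap, as was so for 54.3% of all tested genes. The median log2 fold change of the 8 was 0.39, beside 0.01 over all tested genes. No member passed in the lower direction in this edgeR fit, where Akt2 had an unadjusted p of 0.0296, while 1 (Akt2) did in some other fits. The call count was 2 without WT line 3 (Akt1 and Eif4ebp2) and 3 without WT line 8 or without KO line 13 (Akt1, Eif4ebp2 and Mtor), and 5 without the library labelled KO line 3. In bulk RNA, fewer cells of a type and less RNA per cell cannot be told apart.

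**Figure D1:**
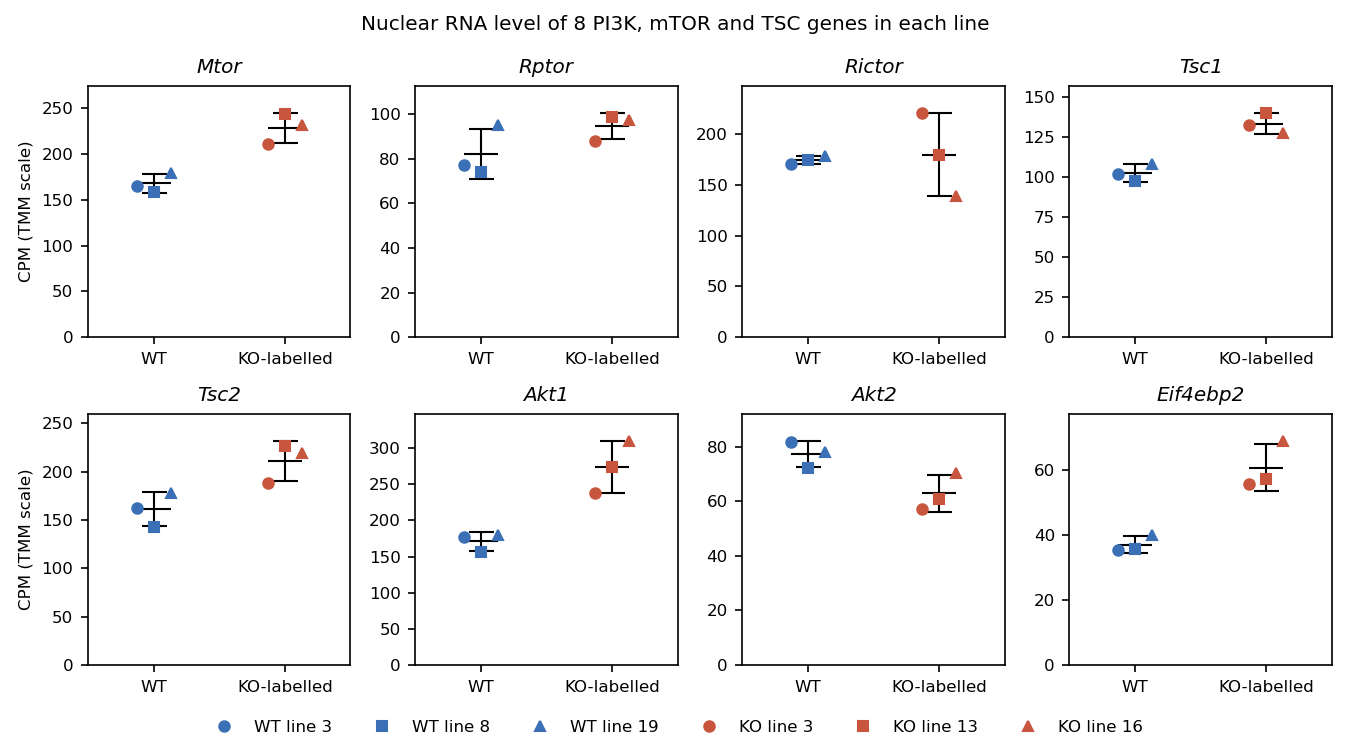
Level of each gene in CPM (vertical axis, from 0) in the 3 WT and the 3 libraries labelled KO. Points are single lines, bars the mean and SD; the groups do not overlap for Mtor, Tsc1, Tsc2, Akt1, Akt2 and Eif4ebp2, while Rptor and Rictor overlap.

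Akt1 and Akt2 encode closely related AKT kinases, which take the PI3K signal to TSC2 and to many other substrates. Akt1 (ENSMUSG00000001729.14, chr12:112653821-112674884 in GRCm38, minus strand) measured 177, 156 and 180.1 CPM in WT lines 3, 8 and 19. In KO lines 3, 13 and 16 it measured 238, 274 and 310.4 CPM. Every library labelled KO was above every WT line, and KO line 16 was the highest. The log2 fold change was 0.68 (SE 0.12, 95% interval 0.40 to 0.96, edgeR adjusted p = 0.00271), and the call held in all 18 other fits.

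Akt2 (ENSMUSG00000004056.15, chr7:27591552-27640826, plus strand) lay the other way. Its levels were 81.9, 72.2 and 78.2 CPM in WT lines 3, 8 and 19 and 57.4, 60.9 and 70.6 CPM in KO lines 3, 13 and 16. The groups did not overlap, although KO line 16 came close to WT line 8. The log2 fold change of -0.30 (SE 0.12, 95% interval -0.56 to -0.04) did not pass (edgeR adjusted p = 0.0648). It passed in 5 of 18 other fits: with a Y-linked covariate (adjusted p = 0.0245), with GC and length trends removed (0.00389), with sample weights in limma-voom (0.0143), with abundant RNAs left out (0.0353) and without KO line 16 (0.0368). Its adjusted p ranged from 0.00389 to 0.232 over all fits.

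A ratio of 2 genes in the same library does not depend on how libraries are scaled to each other. Per kilobase of exon, Akt1 stood to Akt2 at 3.76, 3.77 and 4.01 in WT lines 3, 8 and 19. In KO lines 3, 13 and 16 the ratio was 7.21, 7.83 and 7.65. The WT and KO-labelled sets were far apart and each was tight, with a log2 difference of 0.98 against SDs of 0.05 in WT and 0.06 in the libraries labelled KO. In a two-sided exact permutation test p was 0.1, the smallest that 3 libraries against 3 can give (0.25 adjusted over the 5 ratios compared).

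**Figure D2:**
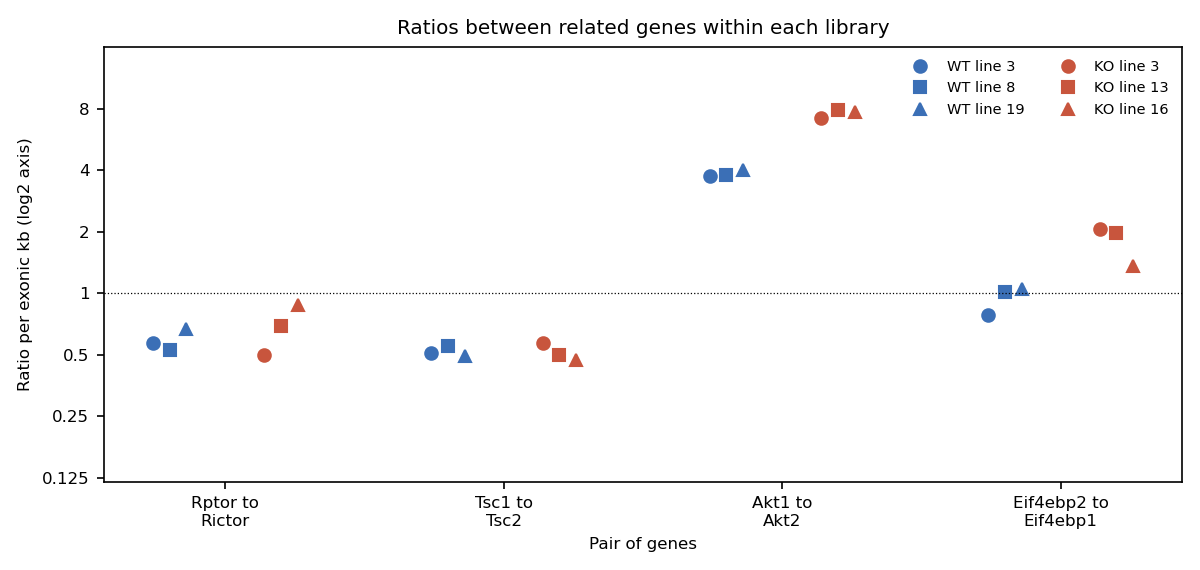
Ratio of the levels per exonic kilobase of 4 pairs of genes within each library (vertical axis, log2 scale); points are single lines. Akt1 to Akt2 lies at 3.76 to 4.01 in WT and 7.21 to 7.83 in the libraries labelled KO, while Tsc1 to Tsc2 overlaps between the groups.

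Tsc1 and Tsc2 encode hamartin and tuberin, which together hold RHEB inactive and so restrain mTORC1. Tsc1 (ENSMUSG00000026812.16, chr2:28641228-28691167, plus strand) was at 102, 97.1 and 108 CPM in WT lines 3, 8 and 19 and at 132, 139.8 and 127 CPM in KO lines 3, 13 and 16. Tsc2 (ENSMUSG00000002496.10, chr17:24595816-24632630, minus strand) was at 162, 143 and 178 CPM in the WT lines and at 188, 227 and 219 CPM in the libraries labelled KO, in the same order of lines. Neither gene overlapped between the groups, but for Tsc2 the gap from WT line 19 to KO line 3 was small. On the log2 scale Tsc1 was higher by 0.38 (SE 0.10, adjusted p = 0.0137 in edgeR) and Tsc2 by 0.39 (SE 0.12, adjusted p = 0.0296 in edgeR). Of the exonic bases of Tsc2, 7.20% are also exon of Pkd1.

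Both TSC calls were fragile. Without WT line 3, WT line 8 or KO line 13 neither gene passed, with adjusted p of 0.0619 to 0.082 for Tsc1 and 0.105 to 0.1145 for Tsc2, and Tsc2 also missed the threshold without KO line 16 (0.0689). The Tsc1 to Tsc2 ratio per kilobase was 0.509, 0.553 and 0.493 in WT lines 3, 8 and 19 and 0.573, 0.501 and 0.471 in KO lines 3, 13 and 16. The log2 difference of that ratio was -0.01, well inside its SDs of 0.09 and 0.14 (exact permutation p = 0.9, two-sided).

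Mtor encodes the kinase at the core of both mTOR complexes. Mtor (ENSMUSG00000028991.15, chr4:148448611-148557683, plus strand) was at 165, 159 and 179.8 CPM in WT lines 3, 8 and 19 and at 211, 243 and 231 CPM in KO lines 3, 13 and 16. All 3 libraries labelled KO were above all 3 WT lines. The log2 fold change was 0.45 (SE 0.10, 95% interval 0.21 to 0.68, edgeR adjusted p = 0.00856), and it missed the threshold only without WT line 3 (0.43, adjusted p = 0.0585) among 18 other fits. With GC and length trends removed the value was 0.29 and was still called (adjusted p = 0.00372). The small gene Angptl7 lies within an intron of Mtor.

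The partners that set the 2 complexes apart did not pass. Rptor, whose product RAPTOR brings substrates to mTORC1 (ENSMUSG00000025583.15, chr11:119602905-119899576, plus strand), was at 77.3, 73.8 and 95.1 CPM in WT lines 3, 8 and 19 and at 88.0, 98.7 and 97.3 CPM in KO lines 3, 13 and 16. WT line 19 lay within the range of the libraries labelled KO. Its log2 fold change was 0.21 (SE 0.12, 95% interval -0.07 to 0.49, edgeR adjusted p = 0.209), and with lines WT 19 and KO 3 both left out it was 0.38 (adjusted p = 0.00589).

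Rictor, whose product defines mTORC2 (ENSMUSG00000050310.9, chr15:6708379-6800401, plus strand), was at 171, 175 and 178 CPM in the WT lines. It was at 221, 179.7 and 139 CPM in KO lines 3, 13 and 16, so the libraries labelled KO fell on both sides of a narrow WT range. The log2 fold change was 0.04 (SE 0.16, 95% interval -0.31 to 0.40, edgeR adjusted p = 0.85), and it was -0.13 without the library labelled KO line 3. The Rptor to Rictor ratio per kilobase was 0.569, 0.531 and 0.670 in the WT lines and 0.501, 0.691 and 0.880 in KO lines 3, 13 and 16 (exact permutation p = 0.6, two-sided).

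Eif4ebp2 encodes the 4E-BP repressor of translation that is prominent in brain. It (ENSMUSG00000020091.15, chr10:61428491-61452661, minus strand) was at 35.4, 35.6 and 40.2 CPM in WT lines 3, 8 and 19 and at 55.8, 57.4 and 69.1 CPM in KO lines 3, 13 and 16. The groups were well apart, with KO line 16 highest. Its log2 fold change of 0.71 (SE 0.12, 95% interval 0.44 to 0.99, edgeR adjusted p = 0.0018) was the highest of the 8 and was called in all 18 other fits. Its paralog Eif4ebp1 had a mean of 15.0 ± 1.94 CPM over WT lines and of 13.51 ± 4.93 CPM over those labelled KO (SD, n = 3 each) and did not pass (log2 fold change -0.15, SE 0.24, edgeR adjusted p = 0.636). KO line 16 was its highest library at 19.2 CPM, and without it the log2 fold change was -0.48 (edgeR adjusted p = 0.0432). Per kilobase, Eif4ebp2 stood to Eif4ebp1 at 0.783, 1.01 and 1.05 in WT lines 3, 8 and 19 and at 2.06, 1.97 and 1.37 in KO lines 3, 13 and 16. These did not overlap, with a log2 difference of 0.91 (exact permutation p = 0.1, two-sided, 0.25 adjusted over the 5 ratios). A further paralog, Eif4ebp3, also rose, from 32.1 ± 3.63 to 43.2 ± 2.62 CPM (SD, n = 3 each, log2 fold change 0.43, SE 0.12, edgeR adjusted p = 0.0189). In WT it stood at 43.2 ± 4.88 CPM per kilobase of exon, above Eif4ebp1 and Eif4ebp2. Of the exonic bases of Eif4ebp3, 67.3% are also exon of another gene, and its call was not followed through the other fits.

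**Figure D3:**
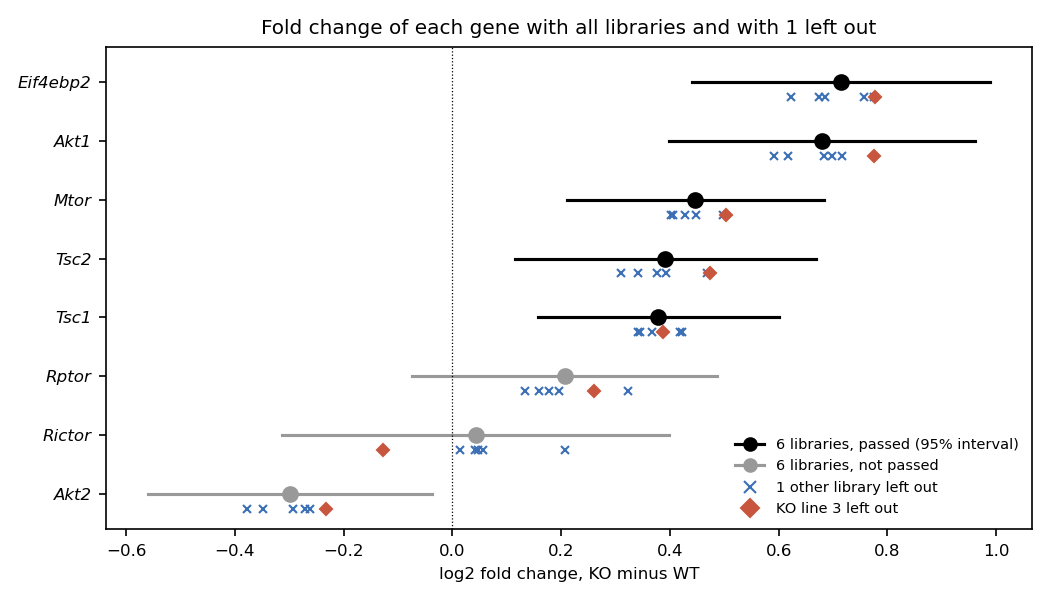
Log2 fold change of each gene, libraries labelled KO minus WT (horizontal axis). Circles and lines give the value and 95% interval with 6 libraries, crosses and diamonds the values with 1 library left out; Rictor changes sign, from 0.04 to -0.13, without KO line 3, and Akt1 and Eif4ebp2 stay above 0.59.

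Levels between genes were compared in CPM per kilobase of exon. In WT, Akt1 was by far the highest of the 8 at 41.8 ± 3.15, followed by Tsc2 at 16.7 ± 1.84 and Mtor at 16.6 ± 1.07, whose lines overlapped. Akt2 (10.9 ± 0.684) and Rictor (10.3 ± 0.221) overlapped in turn, then came Tsc1 (8.64 ± 0.464), and Eif4ebp2 (6.41 ± 0.468) and Rptor (6.09 ± 0.845) were the lowest and overlapped (SD, n = 3 each). In the libraries labelled KO, Akt1 (66.9 ± 8.87), Mtor (22.6 ± 1.60) and Tsc2 (22.0 ± 2.15) again led and Rptor (7.03 ± 0.433) was again last. Between them Tsc1 (11.2 ± 0.545), Rictor (10.6 ± 2.42) and Eif4ebp2 (10.5 ± 1.25) overlapped, and the lines of Akt2 (8.83 ± 0.955) overlapped those of Rictor and Eif4ebp2 (SD, n = 3 each).

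Several of the 8 had similar profiles over the 6 libraries. By the root mean square difference of mean-centred log2 CPM, Mtor and Tsc2 were nearest each other at 0.06, with Tsc1 nearest Mtor at 0.07 and Akt1 and Eif4ebp2 nearest each other at 0.08. Rictor and Akt2 stood apart, at 0.26 from Tsc1 and 0.29 from Rptor, their nearest. Such likeness was not rare, since 123 other tested genes were nearer to Mtor than Tsc2 was. Among the nearest tested genes were Dnajc5 to Mtor (0.02), Mast3 to Tsc2 (0.02), Plagl2 to Tsc1 (0.02), Kctd17 to Akt1 (0.03), Podxl2 to Eif4ebp2 (0.04), Fbxl16 to Rptor (0.03) and Iqcb1 to Rictor (0.03).

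Of 101 other tested genes of the pathway, 17 rose, 14 fell and 70 did not pass, so that 30.7% were called beside 42.3% over all tested genes, with a median log2 fold change of 0.06. With WT line 19 and KO line 3 both left out, 26 rose and 23 fell, with GC and length trends removed 29 rose and 20 fell, and 9 rose and 11 fell without WT line 3. Without WT line 8 there were 10 and 11, and without KO line 13 there were 12 and 10. Counts by role below include any of the 8 genes in that role. The share called ran from 9.09% of the energy and stress genes to 60% of the TSC and RHEB genes, and these are small lists to set beside 42.3%.

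Among 17 receptor and PI3K genes, 3 rose and 3 fell. Agap2 encodes PIKE, a GTPase that enhances PI3K and whose message has been described as an FMRP target. It was at 30.0, 35.1 and 40.7 CPM in WT lines 3, 8 and 19 and at 176, 227 and 211 CPM in KO lines 3, 13 and 16. The groups were far apart, 2.54 apart on the log2 scale (SE 0.15, adjusted p = 1.85e-05 in edgeR). Pik3c2b, a class II PI3K, rose from 19.02 ± 0.557 to 47.5 ± 5.34 CPM (SD, n = 3 each). Pik3r5, the regulatory subunit of the gamma PI3K, fell from 6.34 ± 0.883 to 0.309 ± 0.156 CPM and Pik3cd, the delta catalytic subunit, from 4.06 ± 0.993 to 1.58 ± 0.454 CPM (SD, n = 3 each). Both were near the lower end of detection in KO lines 3, 13 and 16. Counts there were 3, 7 and 11 for Pik3r5 and 22, 49 and 35 for Pik3cd. Pik3cb, the beta catalytic subunit, whose message has also been described as an FMRP target, was at 30.9 ± 2.58 and 27.5 ± 0.769 CPM and did not pass (log2 fold change -0.16, 95% interval -0.41 to 0.08, edgeR adjusted p = 0.2545).

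Of 8 phosphatase genes, 3 rose and 1 fell, a share of 50%, near that over all tested genes. Inpp4a, a phosphoinositide phosphatase, fell from 89.7 ± 11.6 to 52.3 ± 7.34 CPM (SD, n = 3 each). Its relative Inpp4b, near the lower end of detection, had a log2 fold change of 1.09 (edgeR adjusted p = 0.0487), which was 0.61 (adjusted p = 0.118) without the library labelled KO line 3. The log2 fold change of Inppl1, which encodes SHIP2, was 0.41 (edgeR adjusted p = 0.0155) and that of Phlpp1, a phosphatase that acts on AKT, 0.32 (0.0499). The calls of Inpp4b and Phlpp1 were lost in 8 and 10 of 18 other fits, and that of Inppl1 in the 3 fits that left out WT line 3, WT line 8 or KO line 13. Exons of Inppl1 overlap those of Phox2a. In the list of AKT kinases and AKT inputs, 1 of 6 rose (Akt1) and 1 fell. The latter was Sgk1, an AKT-related kinase activated by mTORC2, at 166, 207 and 174 CPM in WT lines 3, 8 and 19 and 44.0, 34.2 and 35.7 CPM in KO lines 3, 13 and 16 (log2 fold change -2.26, SE 0.14, edgeR adjusted p = 2.04e-05).

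In the TSC and RHEB list, Rhebl1, a RHEB-like GTPase, rose beside Tsc1 and Tsc2 (7.31 ± 1.06 to 11.9 ± 0.578 CPM, SD, n = 3 each), and the other 2 of 5 did not pass. Of the exonic bases of Rhebl1, 17.99% lie in other genes, Dhh among them. Among 11 subunits and assembly factors of the mTOR complexes, 2 rose and 2 fell. Mlst8, a subunit of both complexes, rose with Mtor, from 42.5 ± 0.674 to 63.6 ± 5.87 CPM. Prr5l, which binds mTORC2, fell from 208 ± 11.3 to 72.5 ± 1.56 CPM, and Deptor, an inhibitor of both complexes, fell from 1.66 ± 0.425 to 0.603 ± 0.265 CPM (SD, n = 3 each). Deptor was near the lower end of detection, with 48, 40 and 22 counts in WT lines 3, 8 and 19 and 6, 20 and 15 in KO lines 3, 13 and 16. Its call was just lost without WT line 8 (edgeR adjusted p = 0.05003). Exons of Mlst8 overlap those of Bricd5.

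**Figure D4:**
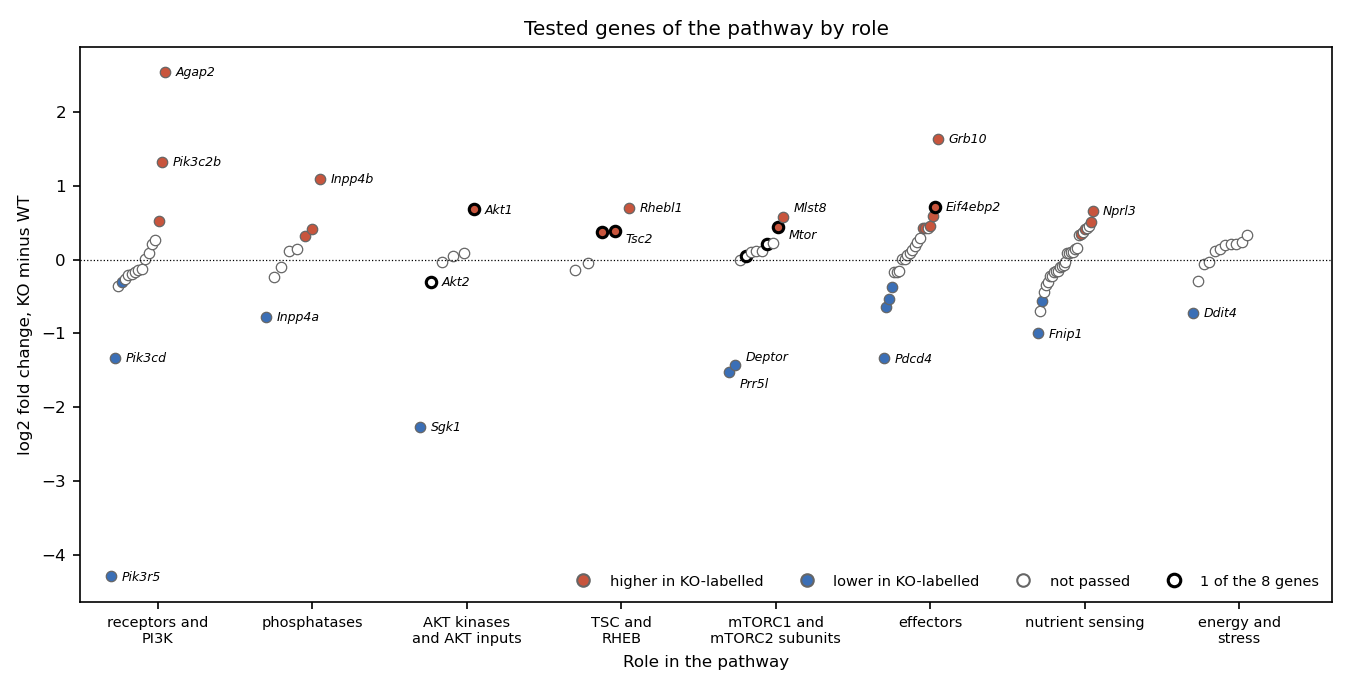
Log2 fold change, libraries labelled KO minus WT (vertical axis), of the tested genes in 8 roles (horizontal axis); coloured points passed the test and thick outlines mark the 8 genes described first. Agap2 is highest at 2.54 and Pik3r5 lowest at -4.29.

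Of 22 effectors, 6 rose and 4 fell, Eif4ebp2 among those that rose. Grb10, an adaptor that dampens insulin receptor signalling, rose from 47.3 ± 9.88 to 147 ± 9.36 CPM, Ulk1, a kinase that starts autophagy, from 54.2 ± 3.10 to 81.5 ± 4.65 CPM, and Eif4b, an initiation factor, from 325 ± 10.9 to 445 ± 24.6 CPM. Pdcd4, a translation repressor that is degraded after phosphorylation by S6 kinase, fell from 51.3 ± 2.94 to 20.3 ± 0.517 CPM (SD, n = 3 each). Of 29 nutrient-sensing genes, 4 rose and 2 fell, a share of 20.7%. Nprl3, part of a complex that restrains mTORC1 when amino acids are scarce, rose by 0.65 on the log2 scale, while the folliculin partners Fnip1 and Fnip2 moved apart, with -1.002 and 0.51. Exons of Nprl3 overlap those of Mpg. The call of Fnip2 was lost without WT line 8 (adjusted p = 0.0529). Of 11 energy and stress genes, 10 did not pass and Ddit4, a stress-induced inhibitor of mTORC1, fell from 47.3 ± 7.33 to 28.6 ± 4.33 CPM (SD, n = 3 each).

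Short marker lists of other neural cell types held calls in both directions, to be set beside the 42.3% called over all tested genes. Of 6 tested oligodendrocyte lineage markers 3 rose, with summed levels of 685 to 767 CPM in WT and 1108 to 1307 CPM in the libraries labelled KO. Astrocyte markers fell in 4 of 7, with sums of 303 to 582 CPM in WT and 149 to 197 CPM, and neuronal markers rose in 3 of 6, with sums of 792 to 1001 CPM and 1081 to 1658 CPM. The part of these markers in the values of the pathway genes was not tested.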

How the data were processed

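The deposited files hold whole-number read counts by gene symbol, made by the authors, for 6 nuclear RNA libraries. The names cutadapt 1.14, STAR, HTSeq 0.7.2, DESeq2 and build mm10 come from the submitters' processing notes, as listed there without roles. Annotation and strand setting are not given in the sources used, so antisense reads cannot be told apart. The KO against WT test was edgeR's, version 4.0.16 under R 4.3.3 (filterByExpr, TMM scaling, robust quasi-likelihood, two-sided, Benjamini-Hochberg over 13925 genes). The standard error comes from the F statistic. CPM are on the TMM scale. Positions and exonic lengths are from GENCODE M21 (GRCm38), and 23055 of 23337 symbols matched RefSeq. Ratios were compared by exact permutation. The fit was tested on simulated data (KO against WT, 13925 genes, of which 200 were changed). The share of changed genes called was 7.8% at 1.3-fold, 19.6% at 1.5-fold and 70.2% at 2-fold, and 6.8% of calls were false. In the real comparison 42.3% of genes were called, far more than were changed in the simulation, so these shares need not hold for it. The genes named were the 8 members, Fmr1, up to 4 called genes per role by smallest adjusted p, and Eif4ebp1, Eif4ebp3 and Pik3cb. Some genes that this rule takes, and 1 of the 5 ratios, are not reported here. Members and lists were chosen with earlier results of these data known. Alternatives were other size factors, filters and tests (limma 3.58.1, DESeq2 1.42.0), a Y-linked covariate, leaving out libraries or abundant RNAs, and, chosen after seeing the data, removal of GC and length trends.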

Additional observations from a re-analysis of the deposited data

How the results depend on the processing

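No paired analysis was made, because the labels link no WT line to a KO line and do not say that the shared line number 3 does so. Akt1 and Eif4ebp2 kept their direction and call in all 18 other fits. Leaving out 1 library in turn, genes called higher ran from 1994 to 3666, members called and members called higher each from 2 to 5, members called lower from 0 to 1, other pathway genes called from 20 to 45 and called higher from 9 to 24. The log2 fold change ran from 0.40 to 0.50 for Mtor, 0.34 to 0.42 for Tsc1, 0.31 to 0.47 for Tsc2, -0.38 to -0.23 for Akt2, -0.13 to 0.21 for Rictor, -0.48 to 0.011 for Eif4ebp1 and -0.58 to 0.14 for Fmr1. Akt2 was the 1 member called lower with sample weights in limma-voom (-0.32), with rRNA precursor, Xist, small RNA and histone genes left out (-0.35), with the Y-linked covariate (-0.30), without KO line 16 (-0.38), at a threshold of 0.10 and with GC and length trends removed (-0.39). With sample weights Rptor was called (0.28), Rictor turned to -0.0145, and 23 other pathway genes were lower. With the abundant RNAs left out Rictor was -0.0123 and Tsc2 lost its call (0.34, adjusted p = 0.0557). With GC and length trends removed 49 other pathway genes were called, 29 higher, Fmr1 was 0.14, Mtor 0.29 (still called), Rptor 0.0706 and the members' median fell to 0.26, beside 0.06 over all genes. With WT line 19 and KO line 3 both left out 49 were called, 26 higher and 23 lower, Rptor was called (0.38), Rictor was -0.12 and the Akt1 to Akt2 log2 difference 1.04. Where a call or sign changed, the cause was not tested. Intervals cover counting error and the spread between lines only.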
